A study of Mus musculus with 14 samples.

Results

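XX embryonic stem (ES) cell lines from the 2 directions of one mouse cross were compared. The 3 BC XX lines came from C57BL/6J mothers mated to CAST/EiJ males, and the 3 CB XX lines from CAST/EiJ mothers mated to C57BL/6J males. These 6 lines were taken by their labels from 14, the others being 3 lines labelled BC XY, 3 labelled CB XY and 2 labelled BC XO (a single X chromosome). Each line was derived from its own blastocyst, so the lines of a group are separate isolates, and all were grown in serum with leukemia inhibitory factor on inactivated mouse embryonic fibroblasts (feeders). Total RNA was taken after 2 feeder-depletion steps and sequenced with strand-specific libraries. A gene was kept where its value reached 10 in at least 3 of the 6 XX lines. This held for 15468 of 23298 genes, of which 15456 were tested and 12 were left out because their listed value is 0 throughout a whole group yet 100 or more in other lines.

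Both groups inherit 1 complete genome from each strain, so on the autosomes and the X chromosomes they hold the same alleles, and what is reversed is the parent that supplied them. The mitochondrial genome comes from the mother and so differs between the groups, and its effect and that of the parental direction cannot be told apart. Imprinted genes, which are read mainly from the maternal or the paternal copy, are the textbook case in which that matters. In XX ES cells neither X chromosome is silenced yet, and *Xist*, the RNA that coats the inactive X chromosome, is made at a low level. Feeder cells are fibroblasts, which when activated make collagens and the actin and calponin proteins of smooth muscle. Primitive streak genes mark the first step of differentiation towards mesoderm and endoderm in the embryo, and some ES cells in serum switch them on.

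The deposited values are a read signal per gene that the authors had scaled to a common depth. Within a line the values move in steps, and if 1 step is 1 read the BC XX lines hold 29242354 to 69646316 reads and the CB XX lines 21569133 to 31997693, so that 3 reads correspond to a value of 1.22 to 4.26. Values were compared as log2(value + 5) with limma, a scale on which differences between low values come out too small. Positive differences are higher in CB XX lines, and the Benjamini-Hochberg false discovery rate (FDR) was held at 0.05 over all genes tested. The labels give no library batch, and which lines were prepared together is not given in the sources used here, so that batch and cross cannot be told apart. The columns of the CB XX lines are numbered 1 to 3 but the labels 1, 3 and 4, and the lines are numbered here by column.

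The cell identity was checked first. *Pou5f1*, a factor that ES cells need, had values of 24861, 20412 and 10830 in the BC XX lines and of 29386, 24378 and 21592 in the CB XX lines. *Nanog*, a second such factor, had values of 6748, 6826 and 4853 against 12130, 9396 and 6743. The 4 other ES markers *Sox2*, *Zfp42*, *Esrrb* and *Utf1* were detected in every line. All 7 feeder markers were detected as well, and the mean log2 level of 32 fibroblast genes was 10.76, 11.51 and 12.01 in the BC XX lines and 8.97, 10.28 and 10.16 in the CB XX lines. The mean of the list was therefore higher in all 3 BC XX lines than in any CB XX line. This held singly for 22 of the 32 genes, against 14.3% of all genes tested. Y-linked transcripts, which XX cells cannot make, moved in the same way. *Ddx3y* had values of 328, 486 and 1024 in the BC XX lines and of 49.7, 163 and 196 in the CB XX lines, and *Kdm5d* 36.9, 62.3 and 123 against 7.11, 24.4 and 29.3. Summed over 4 Y-linked genes, the BC XX lines held 533, 811 and 1659 and the CB XX lines 82, 284 and 331. The mean log2 level of these 4 genes in BC XX 3 was 8.25, within the 7.25 to 8.82 of the BC XY lines. By summed value BC XX 3, at 1659, lay below the 2107 to 4640 of the BC XY lines. The source of this RNA was not tested. In bulk RNA a larger number of feeder cells and more RNA per feeder cell cannot be told apart.

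Another difference between the libraries ran along the base composition of the transcripts. With genes ranked by GC content into 10 bins of equal size, the median difference between CB XX and BC XX lines climbed from -0.21 in the lowest bin to 0.61 in the highest, and in the lines labelled XY from -0.31 to 0.65. BC XX 3 stood farthest out, with its highest bin at -1.34 relative to its lowest once each gene's mean over the 14 lines was removed. Results were therefore repeated after the log2 values of each line had been centred within 20 bins of GC content. The corrected values are given below for some results only. List medians given below without one moved too, among them collagen (-0.39 to -0.77) and Hox genes (-0.81 to -1.11). Targets of the MAP kinase pathway (0.12 to -0.07) and maternally expressed imprinted genes (-0.26 to -0.16) moved as well.

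Whole chromosomes also stood apart in single lines. For genes at 50 or more in all 6 lines, each line was set against the median of the other 5 XX lines. In CB XX 1 the median gene of chromosome 1 was 0.31 log2 units higher and that of chromosome 6 also 0.31 (0.39 and 0.36 after the GC correction). In CB XX 2 chromosome 12 was at -0.34, with 17.9% of 408 genes above the other lines, and chromosomes 10, 17 and 19 were at -0.18, -0.15 and -0.22. After the GC correction chromosome 12 was at -0.29 and the other 3 at -0.20, -0.23 and -0.30. In CB XX 3 chromosome 8 was at 0.34, with 87.6% of 607 genes above. In BC XX 2 chromosome 6 was at 0.18 with 76.9% of 541 genes above (0.17 and 78.9% after the GC correction), and once GC content was corrected no other autosome of a BC XX line lay farther out. The X chromosome of BC XX 3 was at -0.03 before the correction and at -0.2 after it, with 30.8% of 396 genes above. That of CB XX 3 was at 0.13 before and 0.12 after. Among the CB XX lines each of these autosome shifts was present in 1 line and not in all 3. Lines labelled CB XY, set against the XX lines, held some of them too. Chromosome 6 was at -0.2 in CB XY 1, 0.3 in CB XY 2 and 0.23 in CB XY 3. Chromosome 8 was at 0.32 in CB XY 1. What the shifts reflect was not tested. Chromosomes 1, 6, 8, 10, 12, 17 and 19 hold 32 of the 78 genes called between the crosses. They hold 5030 of the 15456 genes tested (32.5%), which is a smaller share. Whether the shifts bear on the calls was not tested.

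**Figure D1:**
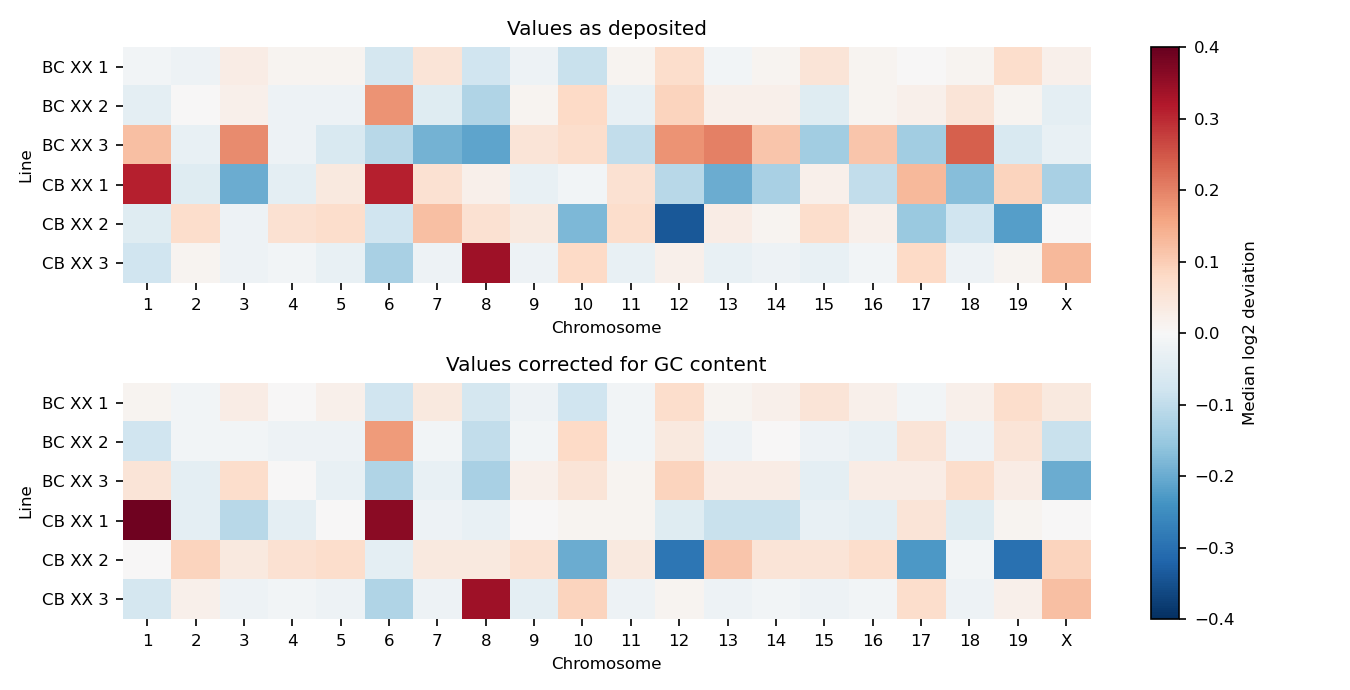
Median log2 deviation of each chromosome (columns) in each XX line (rows) from the median of the other 5 XX lines, before (top) and after (bottom) correction for GC content. The strongest cells are chromosomes 1 and 6 of CB XX 1 (0.31 each), chromosome 12 of CB XX 2 (-0.34) and chromosome 8 of CB XX 3 (0.34), and these keep their sign after the correction.

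Between the 2 groups of XX lines 78 of 15456 genes passed the FDR of 0.05, which is 0.505%. Of these, 75 (0.485% of the genes tested) were lower in CB XX lines and 3 (0.0194%) were higher. The smallest adjusted p by limma was 0.0168, so that 0 genes passed a stricter FDR of 0.01, while 3450 genes had an unadjusted p under 0.05. The count rested on single lines, being 0 without BC XX 2 or BC XX 3, 1 without CB XX 2, 29 without CB XX 1, 168 without BC XX 1 and 824 without CB XX 3. With all 14 lines in one model of 5 groups, which share 1 estimate of the spread, 1159 genes passed (7.5%), 469 of them higher in CB XX lines (3.03%), and all 78 were among them. The median difference over all genes was 0.007. Of the 75 genes lower in CB XX lines 18 belong to the contractile, fibroblast or collagen lists. In 55 of the 78 the 3 BC XX lines lay above all 11 other lines of the study (5.44% of all genes tested), and in 15 the 3 CB XX lines lay below all 11 others (1.33%). The 78 were chosen by the difference between these 2 groups, which did not overlap in any of them. The choice itself therefore raises both counts above the shares over all genes.

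Smooth muscle contractile genes gave more calls than any other pathway or cell type list. Of 15 genes 11 were lower in CB XX lines and 0 higher, and the median difference of the list was -2.93 against 0.01 over all genes tested. *Acta2*, the smooth muscle actin of activated fibroblasts, had values of 28664, 34305 and 41744 in the BC XX lines and of 526, 1461 and 2672 in the CB XX lines. The lowest BC XX line thus lay far above the highest CB XX line, and the difference was -4.76 ± 0.49 (SE, adjusted p = 0.0168 by limma). *Actg2*, the enteric smooth muscle actin, had values of 1416, 2227 and 3361 against 24.2, 82.9 and 113, a difference of -5.04 ± 0.52 (adjusted p = 0.0168). *Cnn1*, a calponin that binds actin filaments, had values of 3156, 3481 and 4656 against 107, 222 and 444, a difference of -4.05 ± 0.44. *Myl9*, the regulatory light chain of smooth muscle myosin, had values of 3022, 4274 and 3908 against 156, 362 and 435 and differed by -3.64 ± 0.36. The myosin heavy chain *Myh11* (-3.90), the actin-binding *Tagln* (-3.75), *Lmod1* (-3.04), the kinase *Mylk* (-2.93) and the tropomyosins *Tpm2* (-2.76) and *Tpm1* (-1.88) were lower as well. *Smtn*, *Des*, *Cald1* and *Myh9* did not pass the test, with differences of 0.38, -1.04, -2.38 and -0.32.

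*Cnn2*, the calponin of non-muscle cells, differed from the other contractile genes in where it stood among all lines. Its values were 3734, 3949 and 3818 in the BC XX lines and 1242, 1467 and 1583 in the CB XX lines, a difference of -1.43 ± 0.16 (adjusted p = 0.0168 by limma). The other 8 lines held 2866 to 4110, so that the CB XX lines were the low ones. For *Acta2* the other 8 lines held 329 to 4393, and there the BC XX lines were the high ones. In 11 of the 15 contractile genes the 3 BC XX lines lay above all 11 others (5.44% of all genes tested). In 1, *Cnn2*, the 3 CB XX lines lay below all 11 others (1.33%).

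Contractile genes are known targets of serum response factor, which binds the CArG box, a run of A and T bases between CC and GG. The promoters of this list were therefore read for it. The RefSeq promoter table (GRCm38.p6) holds 12 of the 15 genes, and of its windows the 250 bases before the start site were searched, leaving the transcribed part aside. A CArG box, which reads alike on both strands, was found for 2 genes, *Cnn2* and *Myl9*. These were 15.4% of the 13 windows of the list, against 1.47% of 32851 windows in the whole table. With 1 of the 6 middle bases allowed to be G or C it was found for 3 genes, now with *Acta2*. These were 23.1% of the list's windows, against 8.59% of all windows. Other lists held boxes too, with few windows each. The primitive streak list had 9.09% of 11 windows, or 18.2% with 1 such base, and the fibroblast list 0% and 14.3% of 21. Of the 11 called contractile genes 8 have a window, and called genes outside this list were not read one by one. The windows of *Acta2*, *Cnn2* and *Myl9* follow, 5′ to 3′, with the boxes in capitals. They are the called contractile genes whose windows hold a box, in *Acta2* only with 1 such base.
Acta2, chr19:34255374-34255623, minus strand: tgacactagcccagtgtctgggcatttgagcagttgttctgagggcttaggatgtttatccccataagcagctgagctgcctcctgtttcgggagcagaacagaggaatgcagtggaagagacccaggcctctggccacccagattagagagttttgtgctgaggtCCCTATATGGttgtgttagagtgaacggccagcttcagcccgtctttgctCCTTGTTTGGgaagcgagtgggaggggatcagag
Cnn2, chr10:79988350-79988599, plus strand: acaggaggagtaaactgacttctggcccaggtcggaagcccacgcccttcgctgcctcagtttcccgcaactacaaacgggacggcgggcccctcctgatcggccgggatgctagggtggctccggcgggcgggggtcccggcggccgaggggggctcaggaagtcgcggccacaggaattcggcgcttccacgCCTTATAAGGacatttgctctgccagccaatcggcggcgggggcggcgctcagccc
Myl9, chr2:156775214-156775463, plus strand: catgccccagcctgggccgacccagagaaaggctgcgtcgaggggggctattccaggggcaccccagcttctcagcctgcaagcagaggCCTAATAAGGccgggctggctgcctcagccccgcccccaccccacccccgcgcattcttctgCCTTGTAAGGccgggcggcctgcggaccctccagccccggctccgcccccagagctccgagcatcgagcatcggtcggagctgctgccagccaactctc
Counted from the start site, the boxes begin at -84 and -34 in *Acta2*, both with 1 G or C inside, at -56 in *Cnn2*, without one, and at -161 (without) and -99 (with 1) in *Myl9*. A match of letters is a description of the window and was not tested as a binding site.

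**Figure D2:**
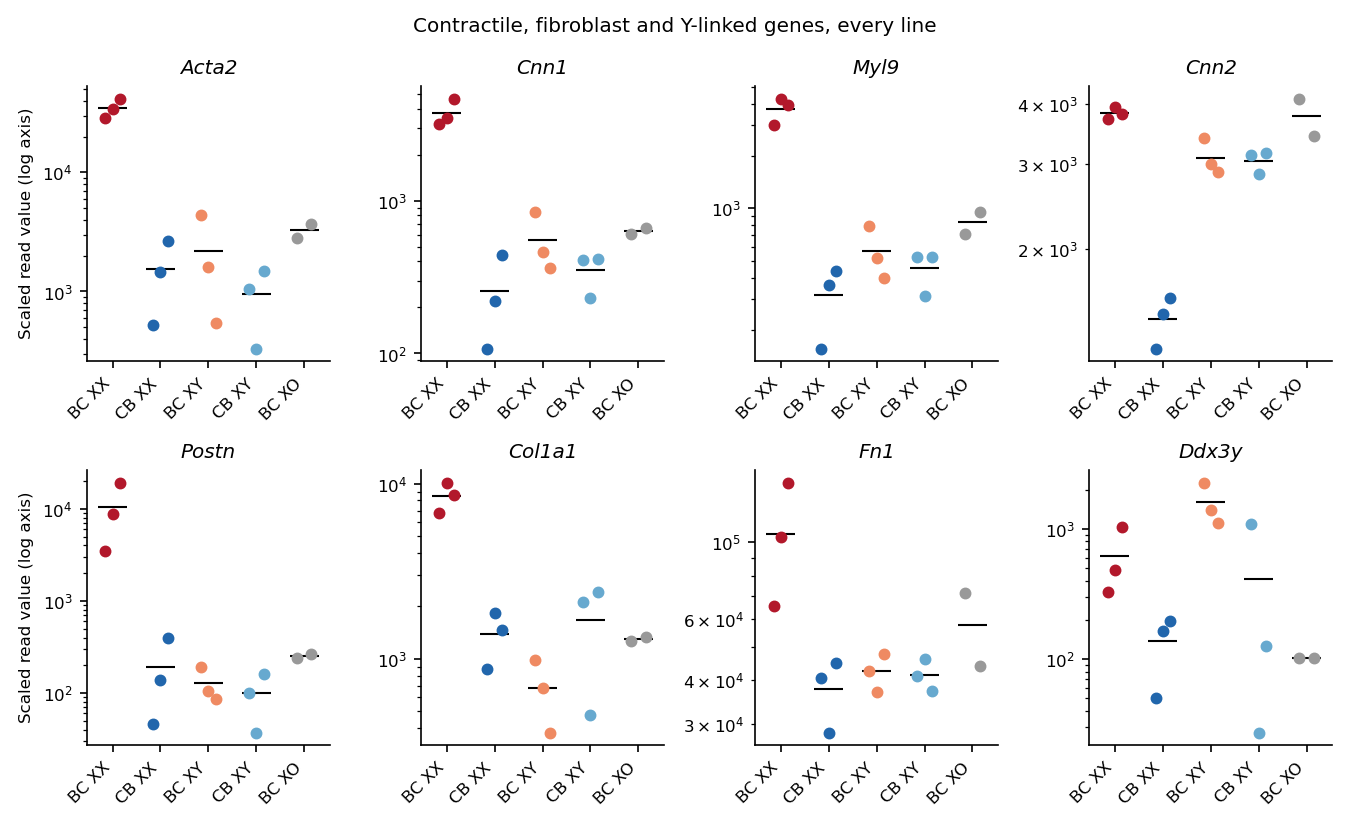
Scaled read value (log axis) of 4 contractile genes, 3 fibroblast genes and the Y-linked *Ddx3y* in all 14 lines, by group, with 1 point per line and a bar at the group mean. For *Acta2* the BC XX lines sit between 28664 and 41744, above every other line, whereas for *Cnn2* the CB XX lines sit between 1242 and 1583, below every other line.

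Fibroblast matrix genes were lower in CB XX lines too, by a smaller amount. Of 32 genes on the list 5 were lower and 0 higher at an FDR of 0.05, the median difference was -1.65, and in 22 of 32 the 3 CB XX lines lay below the 3 BC XX lines (14.3% of all genes tested). *Postn*, a secreted matrix protein of activated fibroblasts, had values of 3482, 8840 and 19281 against 45.5, 139 and 396. This difference of -5.88 ± 0.78 (adjusted p = 0.0231 by limma) was the most negative of all genes tested. *Col1a1*, the main chain of fibrillar collagen, had values of 6804, 10132 and 8551 against 870, 1823 and 1449, a difference of -2.66 ± 0.28 (adjusted p = 0.0168). *Col1a2* (-2.88), *Col5a2* (-3.76) and the crosslinking enzyme *Loxl2* (-1.83) completed the 5. *Fn1*, fibronectin, had values of 65534, 103410 and 148162 against 40535, 28224 and 44850 and missed the threshold (-1.43 ± 0.30, adjusted p = 0.0806), as did *Thbs1* (-2.44 ± 0.56, adjusted p = 0.087). Other fibroblast genes had differences near or above 0. *Col6a3* (0.24), *Lum* (0.28) and *Tgfbi* (0.01) lay close to 0, and *Pdgfra*, a growth factor receptor of mesenchyme and primitive endoderm, had values of 197, 381 and 410 against 449, 1161 and 840. Over the 39 collagen genes tested 5 were lower, adding the basement membrane chains *Col4a1* (-1.52) and *Col4a2* (-1.85) to those above, and the median was -0.39. The fibroblast count was 0 without BC XX 2, without BC XX 3 or without CB XX 2 and 14 without BC XX 1 or without CB XX 3, and the collagen count was 0 without the same 3 lines, 3 without CB XX 1 and 11 without CB XX 3.

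The contractile genes differed by more than the fibroblast genes of the same lines. The mean log2 level of the contractile list, less that of the fibroblast list, was 0.48, -0.01 and -0.24 in the BC XX lines and -0.75, -1.38 and -0.88 in the CB XX lines. In the 8 other lines it ranged from -0.76 to 0.46. The fibroblast level was 10.76 to 12.01 in the BC XX lines and 8.97 to 10.28 in the CB XX lines. It did not overlap between the groups, so a fit with it as a covariate cannot separate it from the cross. Such a fit also has less left to estimate the spread from. In XX lines, calls lost or medians shrunk or reversed with it, here and below, therefore do not show what caused a difference. With the fibroblast level of each line as a covariate 0 of all genes passed the FDR of 0.05 and 531 had an unadjusted p under 0.05 by limma. The median difference of the contractile list was then -1.99. That of the fibroblast list was -0.14, which is small by construction, because the covariate is the mean level of the same 32 genes. The contractile count was 12 at an unadjusted p under 0.05 and 0 after adjustment with this covariate. It was also 0 without BC XX 2, without BC XX 3 or without CB XX 2, and 9 to 12 without each of the other 3 lines. The part of feeder RNA in the contractile differences was not tested.

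Among called genes outside these lists were further proteins of the actin cytoskeleton and adhesion. The crosslinker *Actn1* (-1.10), the actin-severing *Dstn* (-1.13), filamin A (*Flna*, -0.88), drebrin (*Dbn1*, -1.39) and *Tes* (-1.36), a protein of focal adhesions, were lower in CB XX lines. *Dbn1* had values of 1080, 1094 and 1113 against 365, 447 and 435, close together within each group and well apart between them. *Ankrd1*, a target of the YAP and TAZ coactivators, had values of 1325, 1299 and 2400 against 27, 54.8 and 121 and differed by -4.69 ± 0.48 (adjusted p = 0.0168 by limma). It was the 1 called gene of 11 YAP targets, whose median was -0.84. *Ctgf* (-1.71 ± 0.35, adjusted p = 0.0799) and *Axl* (-1.96) missed the threshold, and *Ajuba* was at 0.66. Secreted factors and proteases on the called list included *Igfbp7* (-3.84), *Pappa* (-4.02), which cleaves binding proteins of insulin-like growth factors, and *Tll1* (-2.84).

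Of 11 primitive streak genes tested 1 was lower in CB XX lines at an FDR of 0.05. All 11 had negative differences, 10 had an unadjusted p under 0.05 by limma (11.4% of all genes tested in that direction), and the median was -2.23. The called gene was *Cer1*, a secreted antagonist of Nodal, Wnt and bone morphogenetic proteins made by anterior endoderm. Its values were 324, 341 and 655 in the BC XX lines and 9.95, 1.22 and 36.4 in the CB XX lines, a difference of -4.75 ± 0.63 (adjusted p = 0.0231). *T*, the brachyury factor of early mesoderm, had values of 1418, 624 and 745 against 76.8, 21.9 and 367 (-3.23 ± 0.81, adjusted p = 0.104). *Lhx1*, a factor of anterior mesendoderm, had values of 198, 238 and 325 against 2.84, 3.66 and 67.5 (-3.90 ± 0.77, adjusted p = 0.0703). *Foxa2*, which specifies endoderm, had values of 136, 91.6 and 113 against 14.2, 8.53 and 37.3 (adjusted p = 0.0572). CB XX 3 held the highest value of the 3 CB XX lines for *Cer1*, *T*, *Lhx1* and *Foxa2*, and for *T* its 367 compared with 624 in the lowest BC XX line. *Eomes* (-0.93) and *Evx1* (-0.25) had the smallest differences. With the fibroblast level as a covariate the median of the list was -1.65 and 0 of its genes were called by limma, with 3 at an unadjusted p under 0.05. The call was lost without any 1 of BC XX 2, BC XX 3, CB XX 1 or CB XX 2, whereas 7 genes were called without CB XX 3 and 6 in the 14-line model.

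Other genes of early differentiation were called in the same direction. *Gata6*, a factor of primitive endoderm and mesendoderm, had values of 148, 145 and 243 against 8.53, 24.4 and 41.8 (-2.75 ± 0.46, adjusted p = 0.0495 by limma), and *Dkk1*, a secreted Wnt antagonist, had 112, 107 and 197 against 15.6, 12.2 and 36.4 (-2.50 ± 0.40, adjusted p = 0.0477). The primitive endoderm list itself had a median of -0.06, with *Gata6* and *Col4a1* called of 12. *Fgf5*, a marker of the primed epiblast, had values of 1221, 1305 and 1679 against 156, 134 and 516 and came near the threshold (-2.62 ± 0.46, adjusted p = 0.0554), while *Otx2* (-0.26) and *Dnmt3a* (-0.12), of the same formative and primed list, did not. In the trophoblast list of 13 and the neural list of 12 none was called by limma, while 4 trophoblast genes were higher and 3 lower, and 1 neural gene was higher and 5 lower, at an unadjusted p under 0.05. The keratin *Krt8* had values of 5195, 2940 and 2834 against 323, 423 and 2251 (-2.37, adjusted p = 0.114).

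The factors of naive pluripotency lay in the opposite direction without passing the test singly. All 16 had positive differences, against 50.8% of all genes tested, 11 had an unadjusted p under 0.05 by limma (10.9% in that direction), and the median was 0.64. *Klf2*, a Krüppel-like factor of naive cells, had the largest difference, with values of 2059, 1623 and 1911 against 7469, 6291 and 2835 (1.46 ± 0.33, adjusted p = 0.0859). *Esrrb*, a nuclear receptor that holds cells in the naive state, had values of 11130, 9497 and 9127 against 21238, 14183 and 15334 (0.75 ± 0.18, adjusted p = 0.0982). *Tfcp2l1* (0.56) and *Nanog* (0.59 ± 0.24, adjusted p = 0.194) had lines that overlapped between the groups. The core pluripotency list of 12 had a median of 0.16, from *Tdgf1* at -0.39 to *Utf1* at 2.03. *Utf1*, a chromatin protein of ES cells, had values of 739, 727 and 368 against 3700, 3854 and 955 (adjusted p = 0.108). Of 14 genes of the LIF and STAT3 pathway 7 had an unadjusted p under 0.05, all higher in CB XX lines, among them the feedback inhibitor *Socs3* (1.09) and the kinase *Pim3* (1.20), and 0 were called. After the GC correction the medians were 0.55 for the naive list and 0.23 for the LIF list. With the fibroblast level as a covariate the naive median was 0.15 with 0 of 16 at an unadjusted p under 0.05, the core median was -0.05 and the LIF median 0.32. Without CB XX 3, 5 naive genes passed the FDR by limma.

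**Figure D3:**
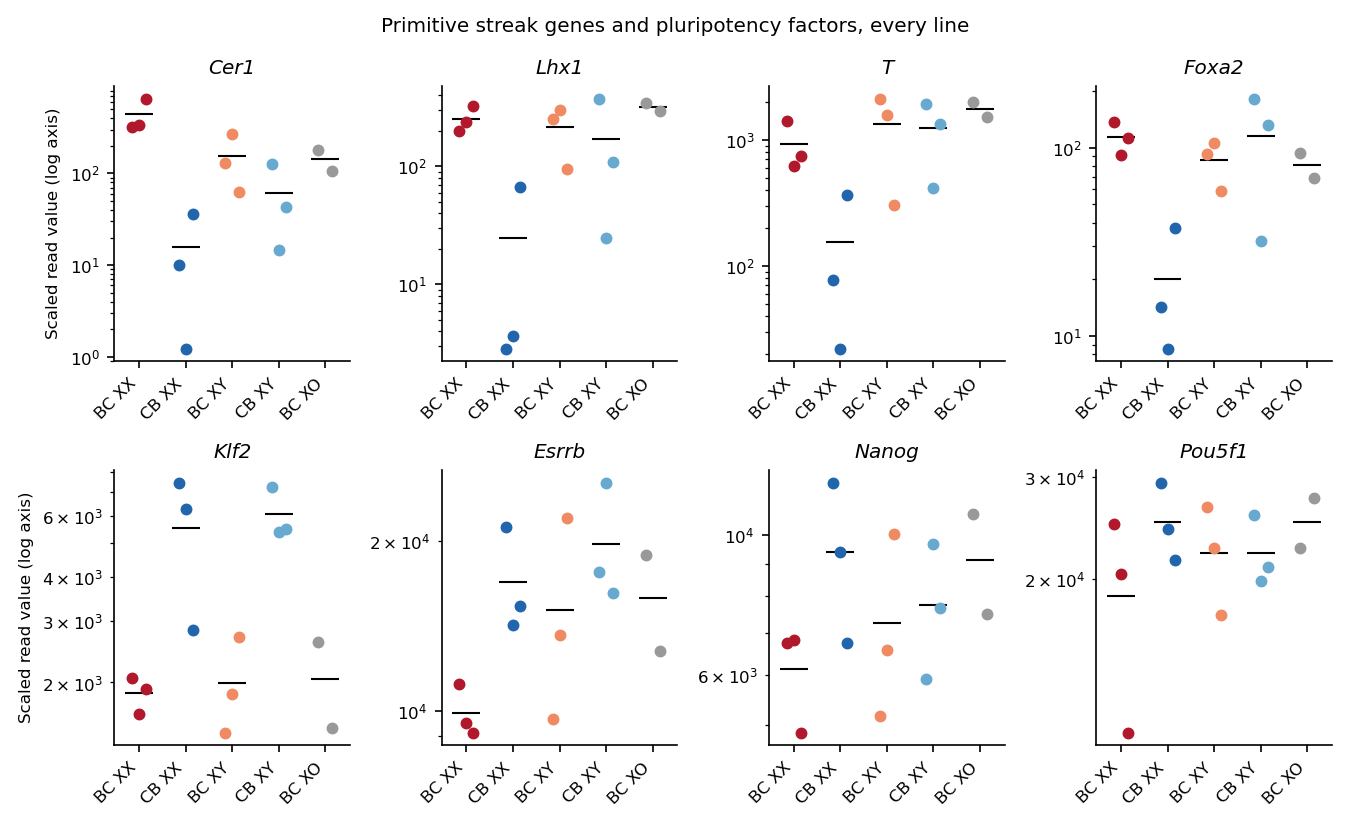
Scaled read value (log axis) of 4 primitive streak or endoderm genes (top) and 4 pluripotency factors (bottom) in all 14 lines, by group, with 1 point per line and a bar at the group mean. *Cer1* lies between 1.22 and 36.4 in the CB XX lines and between 324 and 655 in the BC XX lines, and *Klf2* lies higher in both CB groups.

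Imprinted genes are where a reversal of the parents could show directly, and in the 6 lines none passed the test. Of 32 genes expressed mainly from the maternal copy 0 were called, with a median difference of -0.26 and 11 lower and 1 higher at an unadjusted p under 0.05 by limma, and of 31 expressed mainly from the paternal copy 0 were called, with a median of -0.29 and 6 lower at an unadjusted p under 0.05. Over all genes tested 3450 of 15456, or 22.3%, had such a p, with 11.4% lower and 10.9% higher. Once fibroblast level was a covariate, 0 maternal and 3 paternal genes had one. The 14-line model called 4 maternal genes, 1 of them higher, and 0 paternal genes. Leaving out BC XX 1 gave 1 maternal call, and leaving out CB XX 3 gave 2 maternal calls and 1 paternal call. *Grb10*, an adaptor that restrains insulin signalling, had values of 3357, 7549 and 13709 against 1053, 2084 and 1719 (-2.17 ± 0.47, adjusted p = 0.0839). *Osbpl5* had 503, 564 and 527 against 121, 234 and 266 (-1.41 ± 0.30, adjusted p = 0.0835). *Gnas*, which encodes a stimulatory G protein, had 6436, 7036 and 8285 against 2829, 4616 and 4885 (-0.85 ± 0.23, adjusted p = 0.111). *Rian*, a maternal noncoding RNA of chromosome 12, had 13289, 15502 and 15403 against 9616, 8325 and 10440 (-0.64 ± 0.15, adjusted p = 0.0877), and its neighbours *Meg3* (-0.26) and *Mirg* (0.00) were closer. Of the paternal genes *Mest*, a hydrolase of mesoderm, had 2878, 4143 and 3771 against 2152, 1922 and 2739 (-0.66 ± 0.20, adjusted p = 0.132), and *Sgce* had 337, 355 and 396 against 227, 179 and 224 (-0.78 ± 0.22, adjusted p = 0.115).

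Other imprinted genes lay farther from the threshold. *H19*, the maternal noncoding RNA beside *Igf2*, had values of 7409, 5986 and 3895 against 4037, 7658 and 6909 (0.10 ± 0.30), and *Igf2*, the paternal growth factor, had 1445, 1884 and 2566 against 408, 1133 and 1782 (-1.02 ± 0.48, adjusted p = 0.248). *Snrpn*, a splicing protein gene of the Prader-Willi region, had 6813, 9535 and 4945 against 9253, 6041 and 7694 (0.14 ± 0.26). *Peg10* (-0.05 ± 0.32), *Impact* (-0.08 ± 0.19), *Kcnq1ot1* (-0.29 ± 0.21), *Peg3* (-0.64 ± 0.26) and *Cdkn1c* (-0.85 ± 0.26) had adjusted p-values of 0.136 to 0.934. Total expression was measured and not the parental copies separately, so that an equal total does not show which copy was read.

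X-linked genes were compared with autosomal genes next. Of 586 X-linked genes tested 4 were lower in CB XX lines and 0 higher, against 0.485% and 0.0194% of all genes tested. The median difference of the 586 was 0.02 against 0.01 on the autosomes, or 0.12 against 0.01 after the GC correction. After that correction the X chromosome of BC XX 3 stood at -0.2, as given above. The 4 called genes were *Dgkk*, *Flna*, *Klhl4* and *Tnmd*, of which tenomodulin (*Tnmd*) had values of 38.7, 72.5 and 130 against 1.42, 3.66 and 2.67. *Xist* had values of 3875, 4374 and 4058 in the BC XX lines and of 1723, 1445 and 3803 in the CB XX lines (-0.95 ± 0.32, adjusted p = 0.154 by limma). CB XX 3 was close to the BC XX lines, the other 2 CB XX lines were lower, and the XY and XO lines held 801 to 1650. Its antisense partner *Tsix* had values of 193, 209 and 231 against 183, 146 and 344, with lines that overlapped. *Rlim*, an activator of *Xist*, had values of 28012, 35296 and 36322 against 39683, 29955 and 39580. Of the 10 genes around the X inactivation centre 0 were called and 2 were lower at an unadjusted p under 0.05 (11.4% of all genes tested). The X-linked Xlr and Rhox gene clusters had a median of 0.72 over 15 genes, with 0 called and 4 higher at an unadjusted p under 0.05 (10.9% of all genes tested). Without CB XX 3 the median was 1.34 and 5 were called, and with the fibroblast level as a covariate it turned to -0.12. *Rhox6*, a homeobox gene, had values of 1041, 858 and 358 against 2384, 1334 and 1783 (1.38 ± 0.39, adjusted p = 0.118). *Xlr3a* ranged more within the CB XX lines than between crosses, with 742, 345 and 528 against 1859, 1289 and 161.

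The 3 genes that were higher in CB XX lines stand on chromosomes 1, 12 and 8, each shifted in 1 CB XX line. Chromosome 1 was at 0.31 in CB XX 1, chromosome 12 at -0.34 in CB XX 2 and chromosome 8 at 0.34 in CB XX 3. Whether these shifts bear on the 3 calls was not tested. *Sned1*, which encodes a secreted matrix protein (mm9, chr1:95132418-95197642, plus strand), had values of 33.9, 65.5 and 27.5 in the BC XX lines and of 220, 462 and 433 in the CB XX lines. The difference was 3.00 ± 0.39 (adjusted p = 0.0231 by limma), whereas all 5 called collagen genes were lower. *Mfsd2b*, a sphingolipid transporter of blood cells (chr12:4869246-4881165, minus strand), had values of 91, 68.8 and 69.7 against 226, 225 and 365 (1.74 ± 0.28, adjusted p = 0.0477). The lines labelled XY held 160 to 478, so that for this gene the BC XX lines were the low ones. *Ier2*, an immediate early gene (chr8:87185230-87186751, minus strand), had values of 1219, 943 and 579 against 3538, 3287 and 2264 (1.76 ± 0.29, adjusted p = 0.0495). Its difference was 1.11 after the GC correction. It was 1 of 2 called genes among 22 targets of the MAP kinase pathway, the other being *Dusp6*, the phosphatase that ERK signalling induces against itself. *Dusp6* was lower, with 3409, 3243 and 3674 against 1447, 1100 and 1567 (-1.34 ± 0.18, adjusted p = 0.0231), and the other 8 lines held 3282 to 5137. *Egr1* (0.35), *Etv5* (0.05) and *Spry2* (0.29) did not pass the test, and the median of the list was 0.12, or -0.13 with the fibroblast level as a covariate.

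**Figure D4:**
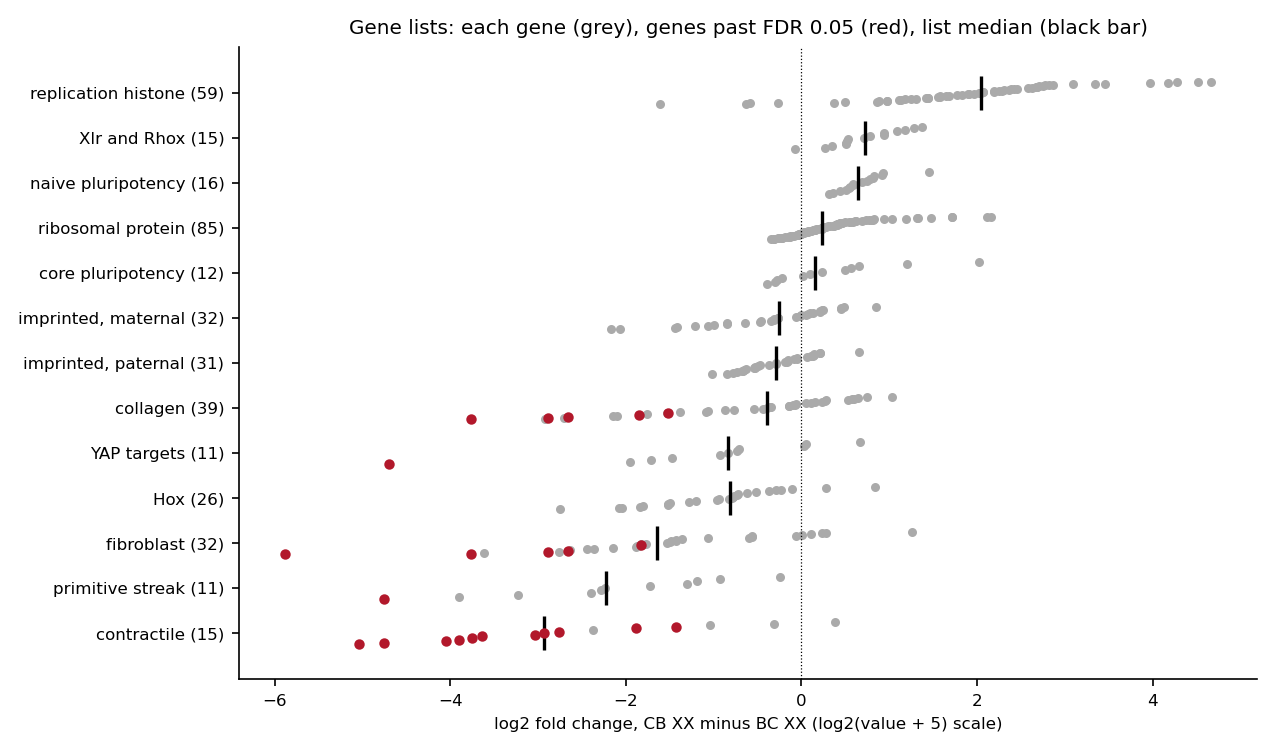
Difference between CB XX and BC XX lines (log2 scale) for each tested gene of 13 lists, with the number tested in brackets. Red points passed an FDR of 0.05, grey ones did not, and the black bar is the list median, from -2.93 (contractile) to 2.05 (replication histone).

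Replication-dependent histone genes had positive differences in 55 of 59 cases, without a call in the 6 lines. Of the 59, 51 had an unadjusted p under 0.05 by limma, all higher in CB XX lines, in 43 the lines did not overlap in that direction (12.8% of all genes tested), and the median was 2.05. *Hist1h3e*, which encodes a histone H3, had values of 53.6, 38.7 and 5.89 against 2536, 2009 and 83.5 (4.66 ± 1.20, adjusted p = 0.108), and *Hist1h4m*, a histone H4 gene, had 581, 326 and 93.3 against 5350, 4629 and 1007 (3.45 ± 0.75, adjusted p = 0.0851). BC XX 3 was the lowest and CB XX 3 the lowest of its group for both. Histone transcripts are short and rich in G and C, with a median GC content of 59.3% against 51.1% over all genes tested, and many have near-identical copies that can share reads. After the GC correction the median was 1.61 and 2 of them, *Hist1h1b* and *Hist1h2ab*, were called as higher (0.086% of all genes). The 14-line model called 44 as higher, and 31 were called without CB XX 3. With the fibroblast level as a covariate the median was 0.46 and 0 had an unadjusted p under 0.05. *Rpph1*, the RNA of ribonuclease P, had values of 30198, 18317 and 4824 against 280925, 193741 and 37324 (3.19 ± 0.82, adjusted p = 0.108), which also fell in the same order of lines.

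Hox genes, which pattern the body axis and which fibroblasts keep active according to their position, had a median of -0.81 over 26 genes, with 0 called and 12 lower and 1 higher at an unadjusted p under 0.05. The median turned to 0.34 with the fibroblast covariate and 3 genes had such a p, and without CB XX 3 the list had 2 calls. In 10 of the 26 genes the CB XX lines lay below the BC XX lines (14.3% of all genes tested). An example was *Hoxc8* at 66.1, 122 and 243 against 4.26, 17.1 and 31.1 (-2.75 ± 0.58, adjusted p = 0.0811 by limma). The lists that follow had no gene past the FDR by limma, apart from 1 Wnt gene. Metabolic and housekeeping lists had medians of 0.23 over 85 ribosomal protein genes (13 higher and 0 lower at an unadjusted p under 0.05), 0.17 over 77 genes of oxidative phosphorylation (11 and 1), 0.23 over 18 genes of cholesterol synthesis (5 and 0) and 0.09 over 21 of hypoxia and glycolysis (2 and 2), where 10.9% of all genes tested were higher and 11.4% lower by that measure. These 4 medians were negative with the fibroblast covariate, at -0.27, -0.19, -0.05 and -0.23. Stress and immune lists had medians of -0.10 over 17 p53 targets (2 higher and 5 lower), 0.23 over 20 ATF4 targets (4 and 2) and 0.24 over 23 interferon response genes (3 and 3), and the ATF4 median was -0.32 with the covariate. Germline genes had a median of 0.24 over 27 (5 and 1), DNA methylation factors 0.06 over 21 (2 and 3), epithelial genes -0.26 over 20 (3 and 5) and genes of the TGF-beta and BMP pathways -0.27 over 24 (2 and 7). Of 18 Wnt genes 1, *Dkk1*, was called. The list of 2-cell genes had a median of -0.88 over 9 genes, Pramel genes 0.01 over 6 and small noncoding RNAs 0.27 over 89, again with 0 called by limma and, at an unadjusted p under 0.05, with 3 lower, none, and 19 higher and 4 lower.

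The same cross could be compared in other lines, the BC XY and the lines labelled CB XY, which share no sample with the XX lines. There 386 of 15340 genes passed the FDR of 0.05 (2.52%), 348 of them higher in CB lines. Although their label is XY, CB XY 2 and CB XY 3 had summed values of 54 and 226 over 4 Y-linked genes, against 2107 to 4640 in the other 4 XY lines and 157 and 175 in the XO lines, and 58 genes passed without them. The contractile list, with 11 of 15 called in XX lines, had 0 called by limma, 0 at an unadjusted p under 0.05 and a median of -0.41 in the XY lines. The fibroblast list had 0 called, 2 higher and 2 lower at an unadjusted p under 0.05 and a median of 0.08. *Acta2* had a difference of -0.96 (adjusted p = 0.53 by limma) and *Col1a1* one of 1.07 (adjusted p = 0.362). Primitive streak genes had a median of -0.07 there. The histone list in contrast had 41 of 60 genes higher in CB XY lines (2.27% of all genes tested) with a median of 1.68, and *Hist1h3e* differed by 5.49. After the GC correction 31 histone genes were called as higher in CB XY lines (0.39% of all genes).

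Of the 78 genes called in XX lines 67 were tested in XY lines, 58 (86.6%) had the same sign and 3 were called there too. Over all genes tested in both comparisons 68.7% had the same sign, or 62.0% after the GC correction, and 2.52% of all genes tested in XY lines were called there. The median size of the difference of these 67 genes was 2.76 in XX lines and 0.51 in XY lines. They were chosen for their difference in XX lines, so a smaller one in other lines follows in part from the choice. The 3 were *Ier2*, with a difference of 1.62 in XY lines (adjusted p = 0.00433 by limma), *Spink3*, a trypsin inhibitor, and *Slc39a8*, a zinc and manganese importer. Chromosome 8, which holds *Ier2*, was at 0.32 relative to the XX lines in CB XY 1, -0.02 in CB XY 2 and -0.03 in CB XY 3. *Spink3* had values of 217, 234 and 508 against 4.26, 9.75 and 38.2 in XX lines, and its differences were -4.06 ± 0.57 in XX and -2.57 in XY lines. *Slc39a8* had 224, 226 and 496 against 8.53, 17.1 and 60.4, and its differences were -3.47 ± 0.57 and -1.80. *Klf2*, not called in XX lines, was higher in CB XY lines by 1.63 (adjusted p = 0.0114). Conversely, of the 386 genes called in XY lines 363 were tested in XX lines and 351 of those had the same sign. Over the 15040 genes tested in both, the 2 differences correlated with an r of 0.54 across genes, and of 0.41 after the GC correction over 13609 genes, genes being not independent and sharing the GC content described above.

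**Figure D5:**
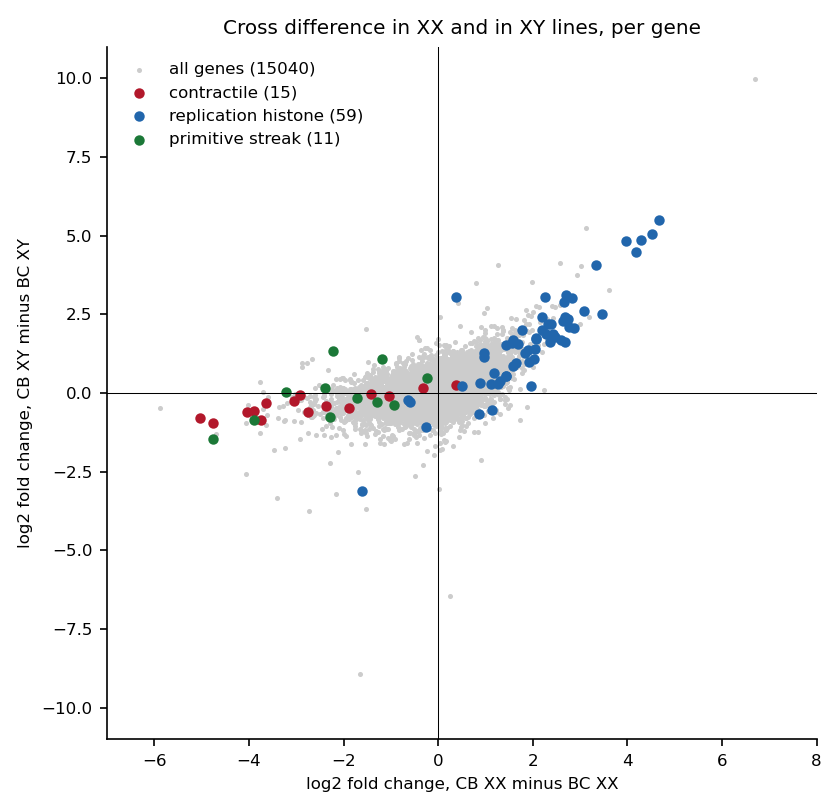
Difference between CB and BC lines in XX lines (x axis) and in lines labelled XY (y axis), both log2, for 15040 genes, with 3 lists in colour. Most replication histones are positive on both axes, whereas contractile genes reach -5.04 on the x axis and no lower than -0.96 on the y axis.

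Whether the cross acted differently in XX and XY lines was tested as an interaction over 12 lines. Of 15756 genes 2 passed the FDR of 0.05 (0.0127%), and 1327 had an unadjusted p under 0.05 by limma. One was *Cnn2*, whose difference was -1.43 in XX and -0.02 in XY lines (interaction -1.41 ± 0.19, adjusted p = 0.0394). The other was *Atp6v0c-ps2*, a pseudogene whose parent *Atp6v0c* is nearly identical and can take its reads (7.27 ± 0.98, adjusted p = 0.0394). Neither held in every fit. Without the 2 lines with low Y-linked RNA the adjusted p was 0.272 for *Cnn2* and 0.215 for *Atp6v0c-ps2*, at interactions of -1.45 and 7.37, and 2 other genes passed, *Mageb16* and *Rpl34*. With the fibroblast level as a covariate they were 0.189 and 0.0902. The interaction of *Acta2* was -3.79 (adjusted p = 0.301), that of *Postn* -5.40 (adjusted p = 0.127) and that of *Dusp6* -1.18 (adjusted p = 0.16), so that for these genes a different response in XX and XY lines was not shown. The contractile list had a median interaction of -2.79 and the primitive streak list one of -2.27, against 0.03 over all genes.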

How the data were processed

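RNA of 14 lines was sequenced single-end with stranded, ribosomal RNA-depleted libraries. Per the labels and methods, the authors aligned reads with TopHat2 to mm9 and deposited 1 signal value per gene and line, read counts scaled to a common depth. The values did not resolve into whole reads throughout, so planned count-based tests were left out. Values were taken as log2(value + 5) after a filter of 10 in at least 3 lines and tested with limma 3.58.1 (R 4.3.3, trended variance, Benjamini-Hochberg adjustment). Tables and plots were made in Python 3.11.15. The fit was tested on simulated data.

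The lines, gene lists and rules were chosen with earlier results of these data known. Genes were named where they had the 10 largest called differences, were the largest called or the most abundant members of a list, were imprinted or in the X inactivation centre at a mean of 100 or more, were called in both XX and XY lines, or served as checks. The following were chosen after their values were seen: *Actn1*, *Dstn*, *Flna*, *Dbn1*, *Tes*, *Tll1*, the X-linked calls and the members of lists given as examples beyond that rule. No column was left unused, and 12 genes listed at 0 throughout a group were left out. Y-linked genes counted as markers of XY cells. Replicates were lines from separate blastocysts.

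Alternatives were other pseudocounts, filters, scalings and thresholds, the 14-line model, a feeder covariate, each line left out and, chosen after seeing the data, a GC correction. Intervals for single genes cover the spread between lines, and low values are limited by depth.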

Additional observations from a re-analysis of the deposited data

Results flagged for a closer look

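In 2 genes the difference between the crosses was not the same in XX and in XY lines, by the interaction in limma over 12 lines (adjusted p = 0.0394 for each). For *Cnn2* the interaction was -1.41 ± 0.19, with CB XX lines at 1242, 1467 and 1583 and all other lines at 2866 to 4110. For *Atp6v0c-ps2* it was 7.27 ± 0.98. This pseudogene had values of 2788, 2826 and 1929 in BC XX, 227, 752 and 2851 in CB XX, 1135, 3884 and 4232 in BC XY and 0.153, 1.05 and 0.349 in the lines labelled CB XY. Its parent gene *Atp6v0c* had values of 5020, 5771 and 4544 in those CB XY lines and of 0.0218, 0.0571 and 0.0688 in BC XY lines, so that the 2 copies were high in opposite groups, and how reads were divided between them was not tested. Neither call held in every fit. Without the 2 lines with low Y-linked RNA the interactions were -1.45 for *Cnn2* (adjusted p = 0.272) and 7.37 for *Atp6v0c-ps2* (adjusted p = 0.215), and with the fibroblast level as a covariate -1.14 (adjusted p = 0.189) and 7.50 (adjusted p = 0.0902). After the GC correction *Cnn2* was at -1.45 (adjusted p = 0.0751), and *Atp6v0c-ps2* has no GC value and was not tested.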

How the results depend on the processing

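For the XX comparison 78 genes were called by limma, against 30 with no filter on low values, 49 with a filter at 50, 1159 with 5 groups on 14 lines, 0 with the fibroblast level as a covariate, 131 after the GC correction and 0 at an FDR of 0.01. Leaving out 1 line gave 0 to 824. The 11 contractile calls became 0 with the covariate and 0 to 12 with 1 line left out. For the XY comparison 386 genes became 58 without the 2 lines with low Y-linked RNA, 60 after the GC correction and 121 to 309 with 1 line left out. The 2 interactions became 4 other genes with the covariate, 2 other genes without the 2 lines with low Y-linked RNA and 0 after the GC correction, with 1342 at an unadjusted p under 0.05. Other scalings and pseudocounts kept the XX count between 54 and 101, and no called value changed sign under these alternatives. For single genes and lists, 3176 values stayed, 463 lost and 36 gained their call, and 174 moved by more than the spread. The causes were not tested, and in the XX lines the fibroblast covariate cannot be separated from the cross.

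No paired analysis was possible because the numbers of the CB XX columns do not match those of their labels. For the XY lines the replicate block gave 290 calls. Deviations of same-numbered XY lines correlated at 0.287, 0.018 and -0.232, so the numbers do not pair the lines. Leaving out BC XX 2 or BC XX 3 left no XX call, and 3 reads correspond to values of up to 4.26, which limits genes at low values such as *Cer1* in CB XX lines. Tests for read counts were planned and not run.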
